A study of Mus musculus with 6 samples.

Results

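The angiopoietin-Tie and apelin genes Angpt1, Angpt2, Tek, Tie1, Ptprb, Apln and Aplnr were followed in bulk RNA-seq of the primary somatosensory (S1) cortex of mice with and without whisker stimulation. The members are a list of gene symbols, drawn up with earlier results of these data known. Of these 7 genes, 6 had a row among the 14824 genes of the deposited table. Ptprb had none under its current symbol or any of its 6 older symbols, and was not analysed here. All samples came from WT mice at postnatal day 21, of the strain labelled C57B6 and named C57BL/6 in the study's methods. The WS group (3 libraries) had received whisker stimulation, and tissue was taken 90 minutes after the last session. Stimulation was given daily with a brush to the whiskers of one side. The NS group (3 libraries, labelled NW control) had received no treatment. Per the study's scheme the unstimulated hemisphere served as control, and its legend gives as many male mice as there are libraries in a group. The labels do not say which libraries share an animal or how the tissue was dissected. P-values therefore measure only the spread between these libraries.

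Angiopoietins are secreted ligands of Tie2, the receptor tyrosine kinase that Tek encodes and that marks endothelial cells. Angpt1, made largely by cells around the vessel, activates Tie2 and keeps vessels quiet and tight, while Angpt2, released by endothelial cells themselves, can act against it and loosens vessels before sprouting or regression. Tie1 is a related receptor that modulates Tie2, and Ptprb encodes VE-PTP, the endothelial phosphatase that removes phosphate from Tie2. Apelin, the peptide encoded by Apln, is known from the tip cells of growing sprouts and signals through a G protein-coupled receptor encoded by Aplnr. These systems act beside VEGFa, and the study asked how stimulation of the whiskers changes vessels and gene expression in the cortex.

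The counts of the listed genes summed to between 15660395 and 17276168 per library, and 13747 genes passed the filter on low counts. Markers of neurons and cortical layers were present in every library, with a summed level between 6047 and 6537 CPM (counts scaled to library size, after TMM normalization), and none of the 10 was at 0 in any library. Markers of neighbouring tissue varied more. The 8 striatum markers summed to between 259.6 and 610.0 CPM, highest in WS replicate 2, and 4 choroid plexus markers to between 9.54 and 86.1 CPM, lowest in WS replicate 1. The 13 endothelial markers, a list without any angiopoietin-Tie or apelin gene, summed to 453.6, 450.2 and 513.4 CPM in NS and to 529.0, 482.8 and 563.1 CPM in WS. The endothelial sums of the 2 groups overlapped (exact permutation test, two-sided p = 0.2, where 0.1 is the smallest p that 3 against 3 libraries allow). The WS sum was the higher within each replicate number. The sums of 10 pericyte markers were 286.2, 289.8 and 286.9 CPM in NS and 296.2, 293.0 and 339.8 CPM in WS (two-sided p = 0.1 in the exact permutation test, before adjustment). They parted only narrowly, between 289.8 CPM in NS replicate 2 and 293.0 CPM in WS replicate 2, and WS replicate 3 stood apart. This list alone reached that p among the marker lists given the same test, and no adjustment over the lists was made. The part of pericytes in the levels of Angpt1, which they make, was not tested.

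To compare levels between genes, CPM were divided by the length of all annotated exons in kilobases. On this scale of CPM per kilobase, Apln had the highest level, with 10.5 ± 1.54 in NS against 11.9 ± 0.867 in WS (mean ± SD of 3 libraries per group, as for the genes that follow). Tek had 3.04 ± 0.165 in NS and 3.22 ± 0.548 in WS. Tie1 followed, with 2.44 ± 0.12 in NS and 2.45 ± 0.154 in WS, so the pair of endothelial receptors was present at similar levels. The ligands of Tie2 were lower, with 1.17 ± 0.447 and 1.10 ± 0.239 for Angpt1 and 0.418 ± 0.0275 and 0.523 ± 0.0796 for Angpt2 in NS and WS. Aplnr was the lowest, with 0.361 ± 0.148 in NS and 0.313 ± 0.124 in WS.

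Neighbours in this order were then compared within each library. Apln was above Tek, Tie1 above Angpt1 and Angpt1 above Angpt2 in 6 of 6 libraries. Tek was above Tie1 in 6 of 6 libraries by a log2 ratio of 0.07 to 0.61, but in 5 of 6 when the longest annotated transcript served as the length, so these neighbours are not separated beyond their spread. Angpt2 was above Aplnr in 5 of 6 libraries, with NS replicate 1 as the exception, and these are not separated either.

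**Figure D1:**
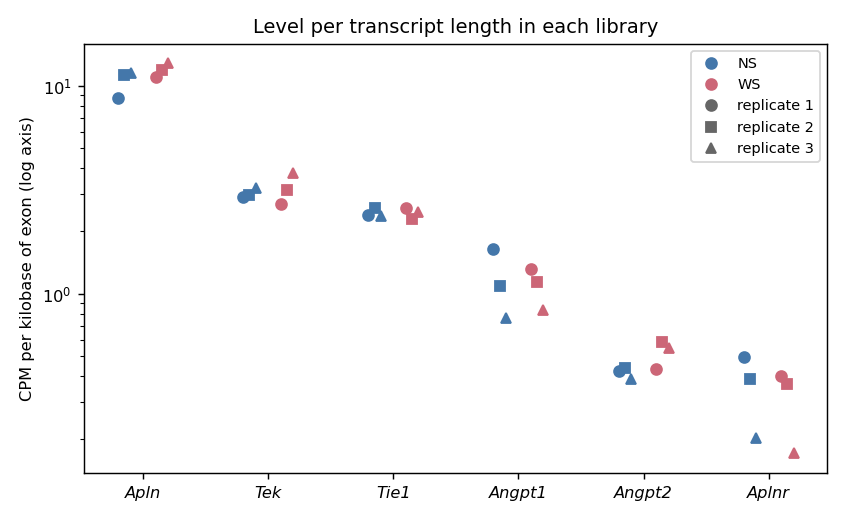
Level of each gene in each library as CPM per kilobase of exon, on a log axis, with NS in blue, WS in red and the replicate number as the symbol. Apln lies between 8.73 and 12.8 in the 6 libraries, above all others, and Aplnr reaches down to 0.171.

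WS was compared with NS for all 13747 genes with edgeR, and a gene was called where its adjusted p was under 0.05 and its log2 fold change beyond 1 in either direction. None of the 6 genes passed (0 of 6), where 0.0291% of all tested genes were called (edgeR, quasi-likelihood test, Benjamini-Hochberg adjusted). DESeq2 also called 0 of 6. At an unadjusted p under 0.05 edgeR again gave 0 of 6, against 1.19% of all tested genes. All 6 had an adjusted p of 0.9998. Of the 6, 4 had a log2 fold change above 0, as did 53% of all tested genes, and their median was 0.04 against 0.0074 over all tested genes.

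Among the ligands of Tie2, Angpt1 (chromosome 15 of GRCm38, 42424723 to 42676977, minus strand) had 8.57, 5.68 and 3.98 CPM in NS replicates 1, 2 and 3 and 6.81, 5.94 and 4.36 CPM in WS replicates 1, 2 and 3. All WS libraries lay within the range of the NS libraries. The fitted log2 fold change of Angpt1 was -0.09 (standard error 0.26, 95% interval -0.65 to 0.48). Angpt1 shares 737 exon bases with the antisense gene Gm17473 on the opposite strand, which has no row in the table, and the counting is not stated to use strand, so reads from these bases cannot be assigned to one of the pair. Angpt2 (chromosome 8, 18690263 to 18741562, minus strand) had 1.58, 1.62 and 1.43 CPM in NS and 1.60, 2.17 and 2.02 CPM in WS. WS replicates 2 and 3 were above every NS library, while WS replicate 1 was not, and WS was higher within each of the 3 replicate numbers. The fitted log2 fold change of Angpt2, 0.32 (standard error 0.24, 95% interval -0.21 to 0.85), was larger in size than that of 95.4% of all tested genes. It rests on few counts, with 74 over the 3 NS libraries (exact Poisson 95% interval 58.1 to 92.9) and 94 over the 3 WS libraries (76.0 to 115.0), which covers counting error only. Angpt2 lies within the span of Mcph1 on the opposite strand, with 0 annotated exon bases in common.

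Among the receptors, Tek (chromosome 4, 94739289 to 94874976, plus strand) had 13.7, 14.04 and 15.2 CPM in NS and 12.7, 14.9 and 17.9 CPM in WS. The WS libraries spread to both sides of the NS libraries, with WS replicate 1 the lowest of the 6 and WS replicate 3 the highest. The log2 fold change of Tek was 0.08 (standard error 0.13, 95% interval -0.21 to 0.37). Tie1 (chromosome 4, 118471191 to 118490061, minus strand) had 11.8, 12.7 and 11.6 CPM in NS and 12.7, 11.2 and 12.2 CPM in WS. It was the steadiest of the 6, with a ratio of 1.13 between its highest and lowest library, and a log2 fold change of 0.0024 (standard error 0.11, 95% interval -0.24 to 0.25). On the linear scale this interval runs from 0.845 to 1.19 times the NS level.

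Of the apelin genes, Apln (chromosome X, 48025146 to 48034853, minus strand) had 27.5, 35.5 and 36.3 CPM in NS and 34.7, 37.2 and 40.2 CPM in WS. NS replicate 1 was the lowest of the 6 libraries and WS replicate 3 the highest, and the groups overlapped because WS replicate 1 lay below NS replicates 2 and 3. Within each of the 3 replicate numbers, WS was higher. The log2 fold change of Apln was 0.18 (standard error 0.12, 95% interval -0.08 to 0.43). Aplnr (chromosome 2, 85136225 to 85139923, plus strand) had 1.83, 1.44 and 0.745 CPM in NS and 1.48, 1.36 and 0.632 CPM in WS. Replicate 3 was the lowest library of each group, the groups overlapped, and WS was lower within each of the 3 replicate numbers. For Aplnr the log2 fold change was -0.20 (standard error 0.39), with the widest 95% interval of the 6, from -1.05 to 0.66. It rests on 64 counts over the NS libraries (exact Poisson 95% interval 49.3 to 81.7) and 57 over the WS libraries (43.2 to 73.9). In the fit blocked on replicate number, the interval of Aplnr ran from -0.81 to 0.40.

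**Figure D2:**
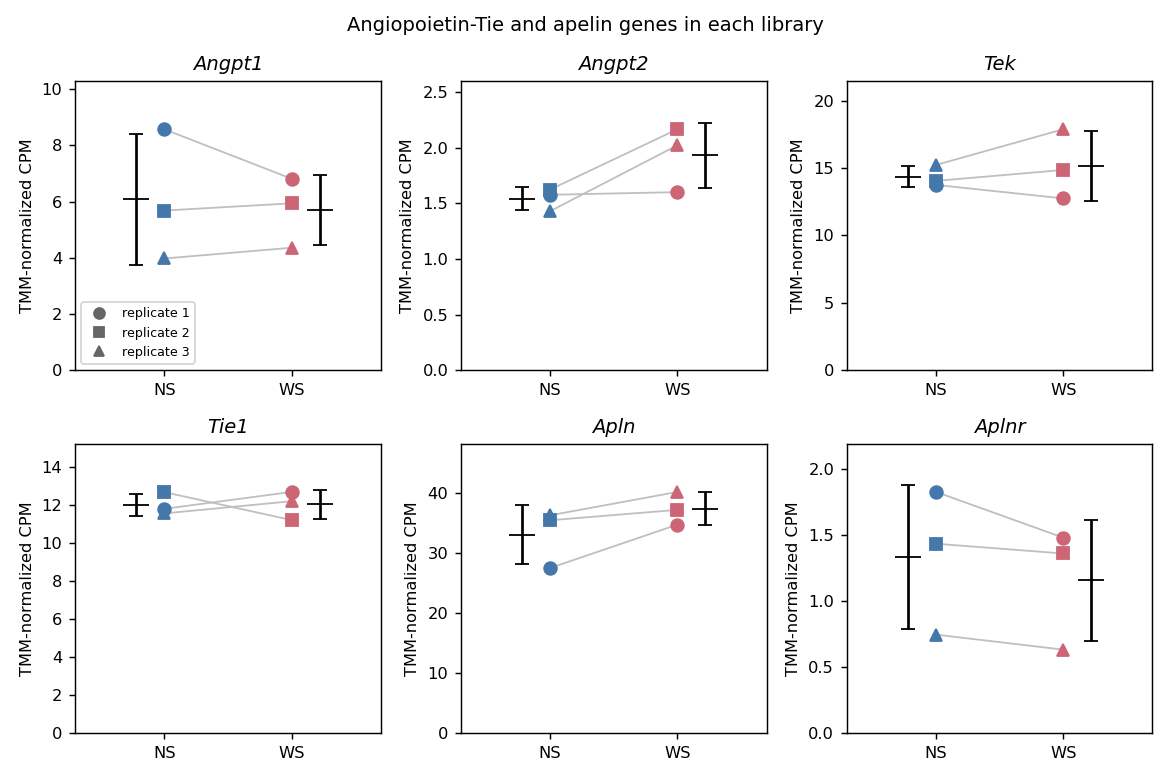
TMM-normalized CPM of the 6 genes in each library, with grey lines joining libraries of the same replicate number and black bars for the mean ± SD of each group (n = 3). In every panel the groups overlap. For Angpt1, Aplnr, Tek and Apln the replicate numbers keep the same order in NS and WS. The share of all tested genes with such an order was not computed. Deviations of same-numbered libraries also correlated over all 13747 tested genes, at 0.34, 0.23 and 0.12, so the order is not particular to these genes.

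For scale, the log2 fold change of Vegfa, the ligand of the neighbouring VEGF pathway, was 1.40 in the same edgeR fit (standard error 0.14, Benjamini-Hochberg adjusted p = 0.00356), and its 95% interval began at 1.09. The upper ends of the intervals for the angiopoietin-Tie and apelin genes lay between 0.25 for Tie1 and 0.85 for Angpt2. Pecam1, a junction protein of endothelial cells, had a log2 fold change of 0.87 (95% interval 0.47 to 1.28, adjusted p = 0.813 in edgeR). A single library decided this call, since without WS replicate 1 Pecam1 was called, at a log2 fold change of 1.08 (adjusted p = 0.00542 in edgeR). The other endothelial markers lay between 0.02 for Egfl7, a secreted endothelial factor, and 0.25 for Kdr, the main VEGFa receptor. All 13 were above 0, with a median of 0.10, and 0 of 13 were called with all libraries.

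**Figure D3:**
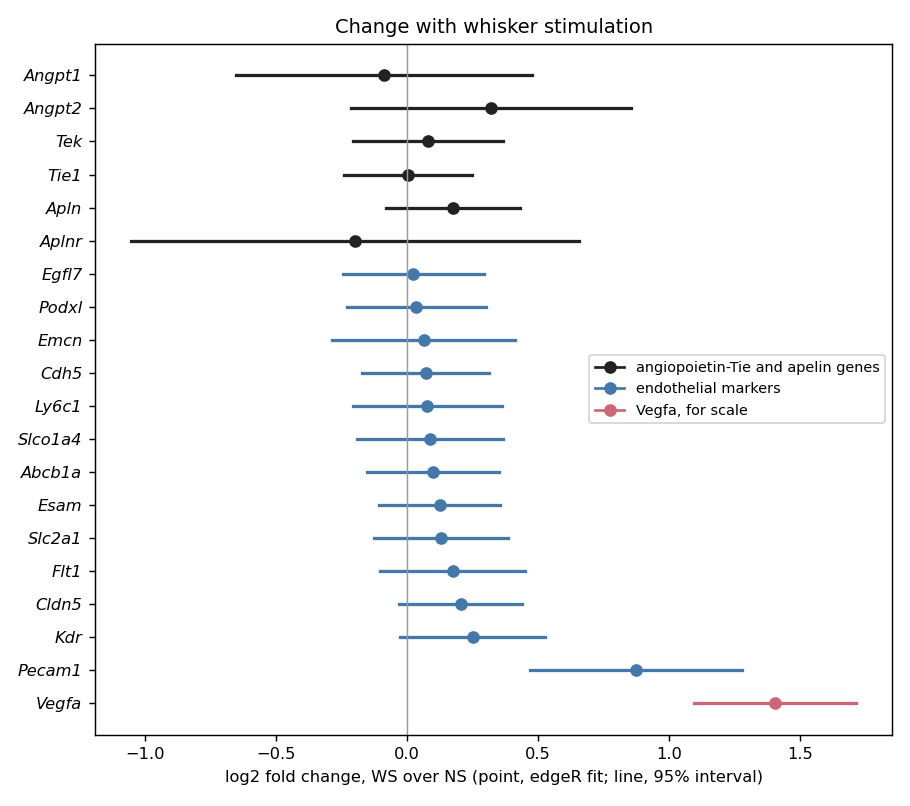
Log2 fold change of WS over NS with its 95% interval from edgeR for the 6 genes (black), the 13 endothelial markers (blue) and Vegfa (red). The intervals of all 6 black genes cross 0, while those of Pecam1, from 0.47, and Vegfa, from 1.09, do not.

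In bulk tissue, more endothelial cells and more RNA per cell cannot be told apart, so each gene was also set against the summed CPM of the 13 endothelial markers as a log2 ratio per library. For Angpt1, made largely by other cells, the ratio does not account for the amount of those cells. The same limit holds for Apln as far as its RNA came from other cells, which was not tested. This ratio for Tek was -5.05, -5.00 and -5.08 in NS and -5.38, -5.02 and -4.98 in WS. The NS libraries were close together, and 1 WS library lay below and another above all of them. For Tie1 the ratio was -5.27, -5.15 and -5.47 in NS and -5.38, -5.43 and -5.53 in WS, a mean difference of -0.15 in log2. For Apln the groups differed by 0.03 and for Angpt2 by 0.16, with Angpt1 at -0.20 and Aplnr at -0.36. Single libraries moved these values, as the difference for Angpt2 was 0.012 without WS replicate 2 and 0.30 without WS replicate 1, and that for Tie1 was -0.24 without NS replicate 3 and -0.078 without NS replicate 2. With Pecam1 left out of the markers, Apln was at 0.069 and Tek at -0.048. None of the 6 differences passed (exact permutation test, two-sided, unadjusted p from 0.3 for Tie1 to 0.9 for Tek and Apln, adjusted p = 0.9 for each over 6 tests), in a design whose smallest p is 0.1. Paired by replicate number, WS was higher in 0 of 3 pairs for Tie1, Aplnr and Angpt1, in 1 for Tek and in 2 for Angpt2 and Apln. The third Angpt1 pair differed by only -0.00052. The exact sign-flip permutation test gave p of 0.25 to 0.75, where 0.25 is the smallest that 3 pairs allow.

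The balance of the ligands and of each receptor pair was then read within each library. Angpt2 stood at 0.184, 0.286 and 0.359 of the Angpt1 CPM in NS and at 0.235, 0.365 and 0.464 in WS. Within each replicate number the WS ratio was the higher of the pair, by 0.35, 0.35 and 0.37 in log2, while the groups overlapped (mean difference 0.36, exact permutation test without pairs, two-sided p = 0.4). An exact sign-flip permutation test over the 3 pairs, added after these differences were seen, gave p = 0.25, the smallest that 3 pairs allow. The ratio rests on 23 to 35 counts of Angpt2 per library, and leaving out NS replicate 1 gave a mean difference of 0.09, leaving out WS replicate 1 one of 0.63. Tie1 stood at 0.858, 0.902 and 0.759 of the Tek CPM in NS and at 0.995, 0.754 and 0.682 in WS. The WS libraries held both the highest and the lowest of these ratios (mean difference -0.07 in log2, exact permutation test, two-sided p = 0.7). The CPM of Apln were 15.03, 24.7 and 48.7 times those of Aplnr in NS and 23.4, 27.3 and 63.6 times in WS, so the ligand exceeded its receptor in each library. This ratio too was higher in WS within each replicate number, by 0.64, 0.15 and 0.39 in log2 (paired exact permutation p = 0.25), with groups that overlapped (mean difference 0.39, unpaired exact permutation test, two-sided p = 0.6). Over these 3 ratios the adjusted p of the unpaired test was 0.7 for each.

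Angpt1 and Aplnr differed between replicate numbers in the same order in both groups. Angpt1 had 136 and 115 counts in the libraries numbered 1, 91 and 96 in those numbered 2, and 64 and 69 in those numbered 3, giving the NS library first. Aplnr had 29 and 25, then 23 and 22, then 12 and 10 counts. When the replicate number was added to the fit as a block, Angpt1 differed between numbers 3 and 1 by -0.88 and Aplnr by -1.25 in log2, while the difference of WS from NS in that fit was -0.07 and -0.20. With this block, 0 of the 6 genes were called, where 0.0436% of all tested genes were, and 0 of 6 had an unadjusted p under 0.05, against 1.77% of all tested genes. The joint test of the replicate numbers, which was added after these values were seen, gave an unadjusted p of 0.00124 for Angpt1 and 0.00878 for Aplnr, but an adjusted p of 0.0833 and 0.285 in edgeR, so neither passed. At an unadjusted p under 0.05 these were 2 of the 6 genes, against 7.79% of all tested genes, and 1.15% of all tested genes had an adjusted p under 0.05. The other 4 genes had an unadjusted p between 0.0694 for Apln and 0.958 for Tie1 in that test.

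Marker lists differed between libraries as well. The 5 oligodendrocyte markers had their lowest sums in the libraries numbered 1, with 6897 CPM in NS and 8174 in WS against 9411 to 11030 in the other libraries. The 5 perivascular fibroblast markers summed to 134.6, 118.0 and 99.0 CPM in NS and to 132.5, 125.9 and 134.5 CPM in WS, and thus followed Angpt1 in NS but not in WS. Pericyte markers stayed between 286.2 and 296.2 CPM in 5 libraries and reached 339.8 CPM in WS replicate 3, the library where Angpt1 was lowest in WS and Tek highest. The astrocyte list was highest in WS replicate 3 too, at 5935 CPM against 4587 to 5100 in the others. Apln and the oligodendrocyte sum were both lowest in NS replicate 1 and highest in WS replicate 3. The part of these lists in the levels of Angpt1, Aplnr, Tek or Apln was not tested, nor were the cells that the Apln RNA came from.

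**Figure D4:**
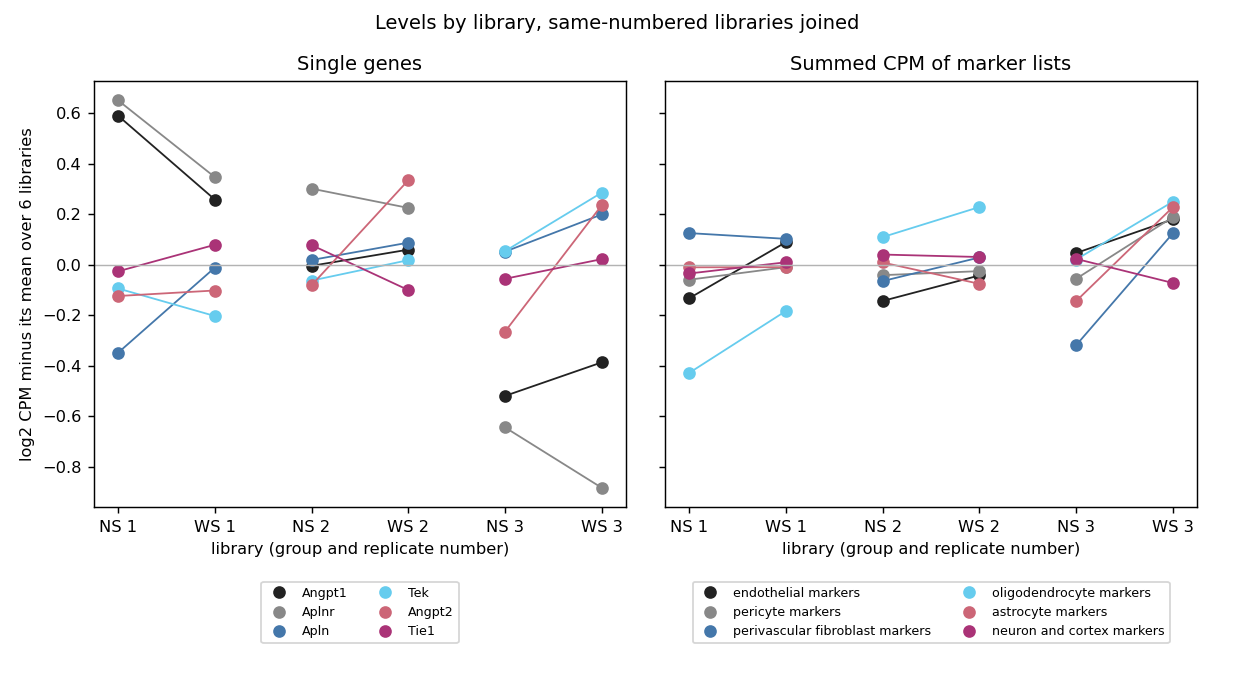
Log2 CPM minus its mean over the 6 libraries, for the 6 genes (left) and for the summed CPM of 6 marker lists (right), with lines joining the NS and WS library of the same replicate number. Angpt1 and Aplnr are highest in the libraries numbered 1 and lowest in those numbered 3 in both groups, and the oligodendrocyte list is lowest in the libraries numbered 1.

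The genes that act with Tie2 were described next, with lists of which a few genes (Cdh5, Kdr) are also endothelial markers. Of 24 partners, 23 passed the filter, and Angpt4, a further ligand of the family with 1 to 6 counts per library, did not. None was called (0 of 23), and 0 had an unadjusted p under 0.05. The median log2 fold change was 0.02, with 15 above 0 and 8 below. The highest values were 0.23 for Itga5, an integrin subunit of the fibronectin receptor (standard error 0.19), and 0.18 for Foxo1, the transcription factor that Tie2 signalling holds back (standard error 0.13). The lowest were -0.24 for Svep1, a large extracellular matrix protein (standard error 0.39), and -0.07 for Tnip2, an adaptor that binds Tie2 (standard error 0.17).

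Of 18 genes around apelin, 16 had a row and passed the filter, without Apela and Klf4. None was called (0 of 16), none had an unadjusted p under 0.05, and the median log2 fold change was 0.01 with 9 above 0. Mme, a peptidase that can cleave apelin, was highest at 0.20 (standard error 0.15). Klf2, a flow-responsive transcription factor of endothelium, had 0.18 (standard error 0.19), and Gnai1, an inhibitory G protein subunit, had -0.15 (standard error 0.07). Furin, a protease that processes precursor proteins including that of apelin, had 0.10 (standard error 0.09).

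Genes known from endothelial tip cells, which Apln and Angpt2 also mark, ranged from a mean of 3.33 counts for Esm1 to 1774 for Cd34. Of 13, 11 had a row and 10 passed the filter, since Esm1 had 1 to 6 counts per library. None of the 10 was called and none had an unadjusted p under 0.05. The median log2 fold change was 0.02, with 6 above 0. The VEGF receptors Kdr and Flt4 were highest, at 0.25 (standard error 0.13) and 0.24 (standard error 0.20). The lowest were Plaur, the urokinase receptor, at -0.12 (standard error 0.35) and Cd34, a surface sialomucin, at -0.05 (standard error 0.10). Dll4, the Notch ligand of tip cells, had 0.11 (standard error 0.19).

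The genes most like each member were taken as those with the highest Pearson correlation of log2 CPM over the 6 libraries, among 10873 genes whose mean count was 100 or more. With 6 points and so many genes, high values are common, and the points share depth and tissue composition. Over these libraries Tek was most like Mfn1 and Ublcp1 (r of 0.999 each), with 292 genes above an r of 0.9. Angpt1 was most like Itfg2 (r of 0.991) and Arl10 (0.988), and Aplnr most like Fam124a (0.995) and App (0.992). Angpt2 was most like Gad1 (0.978) and Pmp22 (0.967), Tie1 most like Adar (0.991) and Sema4b (0.989), and Apln most like Oxnad1 and Sirt2 (0.986 each). Among the 6 genes themselves, Angpt1 and Aplnr had the highest correlation (0.929), and Tek and Aplnr the lowest (-0.845).

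A single library decided the sign of the fold change for 4 of the 6 genes. Without NS replicate 1 the log2 fold change was 0.24 for Angpt1 and 0.09 for Aplnr, and without WS replicate 3 it was 0.07 and 0.09. Tek had -0.06 without WS replicate 3, and Tie1, already near 0, had -0.04 without WS replicate 1 and 0.04 without WS replicate 2. Angpt2 ranged from 0.22 to 0.44 and Apln from 0.06 to 0.25, above 0 each time. No Benjamini-Hochberg adjusted p of the 6 genes fell below 0.9005 in any of these fits by edgeR, with another normalization, filter or block, or in DESeq2.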

How the data were processed

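S1 cortex RNA was sequenced on a DNBseq platform. Per the methods, reads of rRNA or low quality were dropped by the authors and the rest mapped with HISAT2, and the labels name mm10. The counting tool and annotation are not given in the sources used here. The authors deposited per gene the mean of the estimated count over 6 libraries, its SD (a signal column in counts) and a z-score per library. They also deposited their own comparison as a fold change and FDR score, a p-value and a −log10 p-value, none of which were used here. The second deposited table holds only such columns and was not used.

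Counts per library were recovered as mean plus z-score times SD, then rounded. Of the values in 13418 genes with under 0.1 count of rounding uncertainty, 88.5% came back whole within that uncertainty, against 4.73% by chance. The column of WS replicate 3 carries an added letter and was assigned by the authors' WS mean, which includes it. The lowest chi-square between libraries was 4.29 per degree of freedom, so each counted as 1 replicate.

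Analyses used R 4.3.3, edgeR 4.0.16 (TMM, filterByExpr, quasi-likelihood test, Benjamini-Hochberg adjustment) and DESeq2 1.42.0. Only the edgeR steps were also run on simulated counts. Intervals came from the fitted change and its standard error. Permutation tests were exact and two-sided. Positions and exon lengths came from GENCODE M21 on GRCm38. The total of 15660395 to 17276168 counts per library sets the depth, which limits genes with few counts.

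Deviations from the group means of same-numbered libraries correlated at 0.34, 0.23 and 0.12 over 13747 genes, so the replicate numbers were taken to pair the libraries in an alternative with a block. Over 10876 genes whose mean count was 100 or more the third pair was at 0.068, and the labels do not state a pairing. Members and lists were chosen with earlier results of these data known. Named genes are the members, the 2 highest and 2 lowest log2 fold changes of a list among its genes whose mean count was 10 or more, the 2 genes most like each member, Vegfa and Pecam1. Mcph1, Furin, Dll4, Esm1, Angpt4, Cdh5 and Fam205a4 are named outside that rule, after their values were seen, as are Gm17473, Apela and Klf4, which have no row. A gene that the rule would name is not reported here. Alternatives were other normalizations, filters and thresholds, DESeq2, each library left out, the replicate block and, for the ratio to endothelial markers, the mean of log2 CPM and the list without Pecam1.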

Additional observations from a re-analysis of the deposited data

How the results depend on the processing

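In every alternative, 0 of the 6 genes were called, including with the replicate number as a block and at an unadjusted p under 0.05. Their median log2 fold change was 0.04 in the fit as reported and stayed between 0.0495 and 0.0807 with each library left out. Over all genes, 4 were called higher and 0 lower, against 6 higher with the replicate block, 119 higher and 45 lower genes by unadjusted p, and 0 to 6 higher and 0 to 1 lower with each library left out. The count of higher genes was 0 without NS replicate 2 and without NS replicate 3, and the gene lower was Fam205a4, without WS replicate 3. The log2 fold change of Tie1 changed sign with total counts only (-0.0028) and with DESeq2 (-0.00033). With each library left out, Angpt1 ranged from -0.32 to 0.24, Tek from -0.057 to 0.19, Tie1 from -0.037 to 0.043 and Aplnr from -0.49 to 0.093. The difference between groups in the ratio to endothelial markers then ranged from -0.53 to 0.11 for Angpt1, from 0.012 to 0.30 for Angpt2, from -0.24 to -0.078 for Tie1, from -0.16 to 0.041 for Tek, from -0.068 to 0.12 for Apln and from -0.79 to 0.083 for Aplnr. The difference in Angpt2 to Angpt1 ranged from 0.090 to 0.63, that in Tie1 to Tek from -0.22 to 0.049 and that in Apln to Aplnr from -0.052 to 0.84. With 2 libraries in 1 group these fits have fewer samples, and the cause of each change of sign was not tested. The mean of log2 CPM or the marker list without Pecam1 turned no sign of the ratios to endothelial markers. Paired by replicate number, those ratios and the ratios between genes had p of 0.25 to 0.75 (exact sign-flip permutation test, smallest p 0.25). The block changed no call of the 6 genes, and the log2 fold change of Apln with it was 0.18 (edgeR's quasi-likelihood test, unadjusted p = 0.0934, adjusted p = 0.9999). Depth limits Angpt2 and Aplnr most, at a mean of 28 and 20.2 counts.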

Other observations

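Other cells of the vessel wall were read in the same way, as counts over lists. For venous endothelial markers the median log2 fold change was 0.07, with 5 of 5 above 0, and Vwf, which encodes von Willebrand factor, was highest at 0.27 (standard error 0.14). Arterial markers had a median of -0.01 with 2 of 5 above 0, from -0.04 for Gkn3 to 0.22 for Bmx, an endothelial kinase with 13 to 26 counts per library. Pericyte markers had a median of 0.11 with 8 of 10 above 0, from -0.17 for Higd1b to 0.21 for Ndufa4l2. Smooth muscle markers that passed the filter had a median of 0.18 with 4 of 4 above 0. No gene of these lists was called by edgeR, and 0 had an unadjusted p under 0.05. The share of all tested genes above 0 was 53%.

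Blood cell genes, which reflect residual blood, summed to 484.3, 421.6 and 766.4 CPM in NS and to 603.0, 500.9 and 634.0 CPM in WS, highest in NS replicate 3. Among glial lists the median log2 fold change was 0.09 for microglia, 0.13 for astrocyte and 0.19 for oligodendrocyte markers, with none called. It was 0.03 for neuron and cortex, 0.17 for fibroblast, 0.18 for striatum, -0.16 for choroid plexus and 0.03 for red blood cell genes, also with none called.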
